A study of Homo sapiens with 15 samples.

Results

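The 43 genes described here carry out the repair of DNA double-strand breaks and interstrand crosslinks by homologous recombination, the Fanconi anemia pathway and end joining. They were chosen by name, and each was found as 1 row among the 35805 genes of the expression table. All 43 passed the filter on low values, which 16787 genes passed, although one of them, FANCF, did so with no more than 18 reads in any library. By role, 12 act in strand invasion or as its mediators, 10 sense breaks or resect their ends, 2 form a nuclease for joint molecules, 8 belong to the Fanconi core complex, 2 are its substrates, 7 act in classical end joining and 2 in alternative end joining.

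A double-strand break can be cut back on one strand to give a single-stranded tail, which invades the sister chromatid with the help of mediator proteins, or its ends can be joined directly after Ku binds them. 53BP1, RIF1 and shieldin protect the ends and favour joining, whereas BRCA1 and the MRE11 complex favour resection. The Fanconi core complex attaches ubiquitin to FANCD2 and FANCI at crosslinks, and many of the genes of recombination and crosslink repair are transcribed around S phase.

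RNA-seq compared THAP1 knockout populations of HEK-293T, a line derived from human embryonic kidney, with cells that kept the gene. THAP1 is a zinc finger transcription factor, and the purpose of the comparison was to find its transcriptional targets. THAP1 was ablated in cells carrying a green fluorescent reporter knocked in at PSMB5 that also overexpressed PSMB5, because loss of THAP1 is otherwise lethal; the sources used here do not say whether the control and untransduced cells shared both features. The 6 sgTHAP1 libraries came from populations, not clones, that expressed Cas9 with sg1-THAP1 or sg2-THAP1 (3 libraries each) and were sorted for dim reporter fluorescence. The 6 sgControl libraries came from cells that expressed Cas9 with sg1-Control or sg2-Control (3 each), which cut within introns, and the remaining 3 libraries came from untransduced cells. The study calls the replicates biological, but the 3 libraries of a guide share that guide, and the sources used here do not say whether they came from separate transductions, so p-values measure the spread between these libraries.

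Libraries held 30400149 to 56638461 reads, as inferred from the scale of the deposited values, and replicates of a group differed by more than sampling noise. All 7 markers fixed for HEK cells had reads, but IRS4, one of them, fell by 1.40 on the log2 scale in sgTHAP1 cells (7.28 to 7.36 log2 RPM, against 8.67 to 8.74 in sgControl libraries, adjusted p = 6.3e-20) and NEFM rose by 0.51, while the 12 markers of other lines summed to 0.559 to 1.47 RPM (reads scaled to a common library size) in any library. THAP1 RNA was itself higher in every sgTHAP1 library, at 5.48 to 6.18 log2 RPM, against 3.25 to 3.57 in sgControl and 3.36 to 3.46 in untransduced libraries, and small insertions or deletions need not lower the RNA of a gene, so this level does not test the loss of the protein. Genes that mark S phase and mitosis moved with the groups: the 20 S phase genes summed to 3420 to 3550 RPM in sgTHAP1, 4120 to 4370 RPM in sgControl and 3760 to 3810 RPM in untransduced libraries, and the 15 mitosis genes to 2570 to 3370 RPM in sgTHAP1, 2370 to 2530 RPM in sgControl and 2390 to 2430 RPM in untransduced libraries. The part of cell cycle distribution in the changes below was not tested.

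Per kilobase of merged exon, the Ku subunits led the members in untransduced cells. XRCC6 (Ku70) averaged 175 RPKM and XRCC5 (Ku80) 73.4 RPKM, followed by PARP1, which senses breaks and acts in alternative end joining, at 50.3 RPKM. EXO1, a resection nuclease, averaged 35.1 RPKM and PRKDC, the catalytic subunit of DNA-dependent protein kinase, 23.4 RPKM. At the low end stood FANCB at 0.725 RPKM and FANCF at 0.0815 RPKM. Of the 42 pairs of neighbours in this order, 17 had overlapping libraries. The order depends on the gene model: with the length of the canonical transcript, an alternative added after seeing the data, XRCC6 (267 RPKM) and FANCF kept first and last place, but PARP1 stood above XRCC5 (233 against 119 RPKM). With that length FANCB had 3.2 RPKM, in place 38 and above NHEJ1 (1.41 RPKM), and FANCL moved from place 38 to place 11.

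Relative to sgControl cells, sgTHAP1 cells had lower RNA of 21 members and higher RNA of 4, at an adjusted p under 0.05 in a limma fit over all genes tested. These are 48.8% and 9.30% of the members, beside 32.6% and 20.2% of all genes tested, so that the lower share lay above and the higher share below that of all genes. In bulk RNA, fewer cells that express a gene and less of its RNA per cell cannot be told apart. Sorting is described only for the sgTHAP1 cells, so loss of THAP1 and sorting cannot be told apart in this comparison. The same holds for any difference in the reporter or in PSMB5 overexpression. No member met the study's thresholds of 2-fold and an adjusted p of 0.001, which 1.83% of all genes passed downward and 0.346% upward. The median log2 fold change was -0.11 over the members (-0.06 without sg1-THAP1 replicate 3) and -0.06 over all genes. In 14 members all 6 sgTHAP1 libraries lay below the other 9 libraries, where 12.9% of all genes did so, and in 0 members did they lie above them, where 7.12% of genes did. The counts depend on the scaling: with libraries centred on their medians 14 members were lower and 12 higher, beside 22.3% and 31.9% of all genes, and with quantile normalization 17 were lower and 10 higher, beside 25.3% and 27.3%. Centring moved the median of all genes to 0.049 in this comparison and quantile normalization to 0.018, against -0.065 as deposited.

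**Figure D1:**
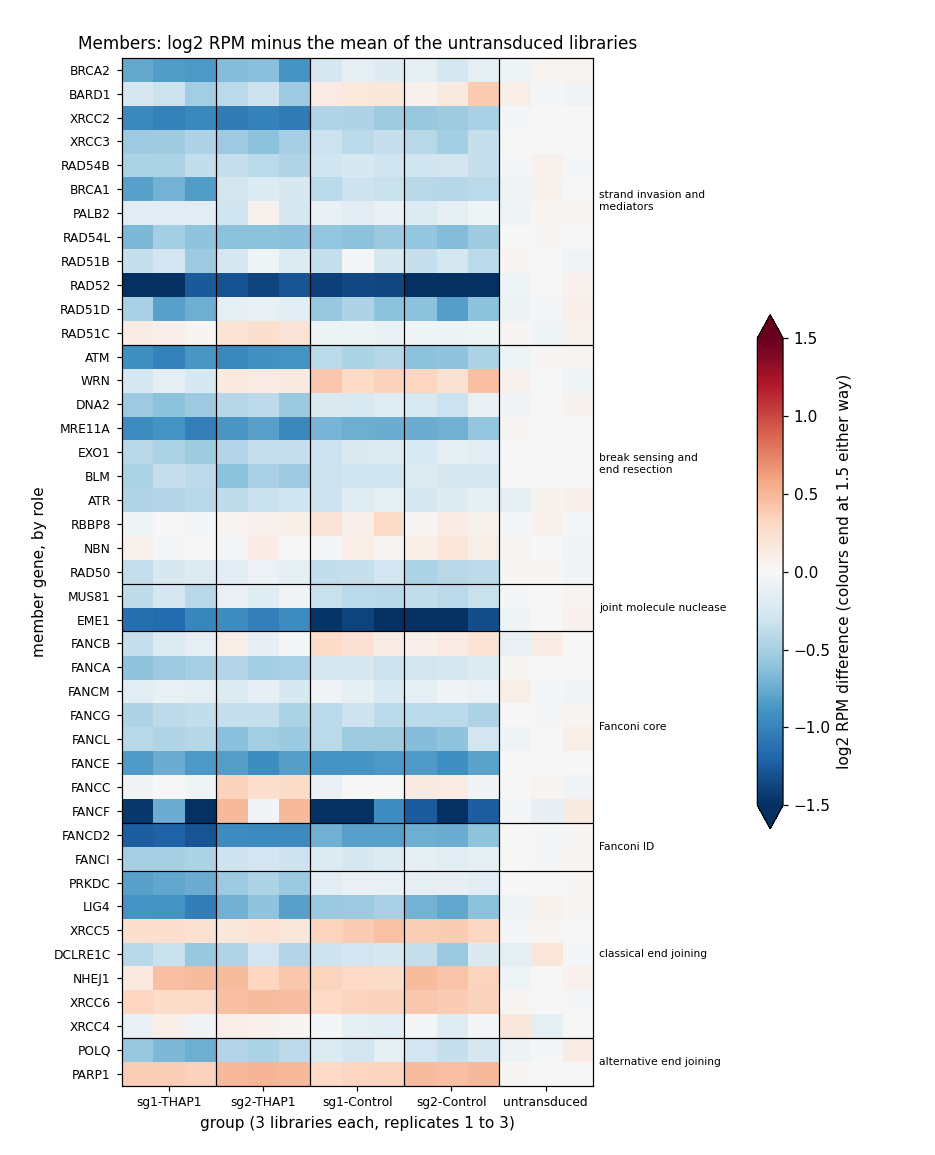
Each row is 1 of the 43 members, grouped by role and sorted by its change in sgTHAP1 cells; each column is 1 library. Colour gives log2 RPM relative to the untransduced mean, with the scale ending at 1.5 either way; RAD52 and EME1 were low in all 12 libraries that expressed a guide, while XRCC5, XRCC6, NHEJ1 and PARP1 were high in them.

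Among the genes of strand invasion, 5 of 12 were lower (41.7%) and 1 was higher (8.33%), beside 32.6% and 20.2% of all genes. XRCC2 (chr7:152644779-152676165, minus strand, GRCh38), a factor that assists strand invasion, had the smallest adjusted p of all members. XRCC2 measured 6.16, 6.12 and 6.16 log2 RPM in sg1-THAP1 libraries and 6.08, 6.12 and 6.07 in sg2-THAP1 libraries, against 6.68, 6.67 and 6.60 in sg1-Control, 6.56, 6.60 and 6.64 in sg2-Control, and 7.10, 7.14 and 7.14 in untransduced libraries. The 3 conditions did not overlap, and both THAP1 guides gave nearly the same level. The level in sgTHAP1 cells was 70.3% of that in sgControl cells (log2 fold change -0.51, SE 0.03, adjusted p = 5.0e-11, limma). BRCA2, a mediator of strand invasion on resected DNA, had the largest fall of the called members in sgTHAP1 cells. BRCA2 measured 4.93, 4.86 and 4.84 log2 RPM with sg1-THAP1 and 5.05, 5.07 and 4.81 with sg2-THAP1, against 5.45, 5.56 and 5.51 with sg1-Control, 5.57, 5.44 and 5.55 with sg2-Control, and 5.64, 5.74 and 5.74 in untransduced cells. Again the conditions did not overlap, and the log2 fold change was -0.59 (SE 0.05, adjusted p = 3.44e-09). The step from untransduced to sgControl cells depends on the scaling: with median centring it was -0.03 for BRCA2 (adjusted p = 0.614, limma). BARD1, the partner of BRCA1 in its ubiquitin ligase, measured 4.60, 4.53 and 4.33 with sg1-THAP1 and 4.45, 4.54 and 4.31 with sg2-THAP1, against 4.97, 5.01 and 5.02 with sg1-Control, 4.92, 4.98 and 5.24 with sg2-Control, and 4.94, 4.82 and 4.80 log2 RPM in untransduced cells. The 6 sgTHAP1 libraries lay below all others, and sgControl and untransduced libraries overlapped. BARD1 had a log2 fold change of -0.56 (SE 0.06, adjusted p = 1.34e-07). XRCC3 and RAD54B fell by 0.14 each on the log2 scale (adjusted p = 0.00261 and 0.011), calls lost with median centring (-0.03, adjusted p = 0.561, and -0.02, adjusted p = 0.697), and for RAD54B also with quantile normalization (-0.05, adjusted p = 0.391) and in the sg2 pair (-0.11, adjusted p = 0.137), and RAD51C, which also assists strand invasion, rose by 0.22 (adjusted p = 5.21e-05). PALB2, RAD51B, RAD54L and RAD52 had log2 fold changes of -0.03, -0.01, -0.02 and 0.08 that did not pass the test. RAD52 passed with quantile normalization or median centring (0.19 each, adjusted p = 0.0131 and 0.0124) and in the sg2 pair (0.22, adjusted p = 0.0261).

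**Figure D2:**
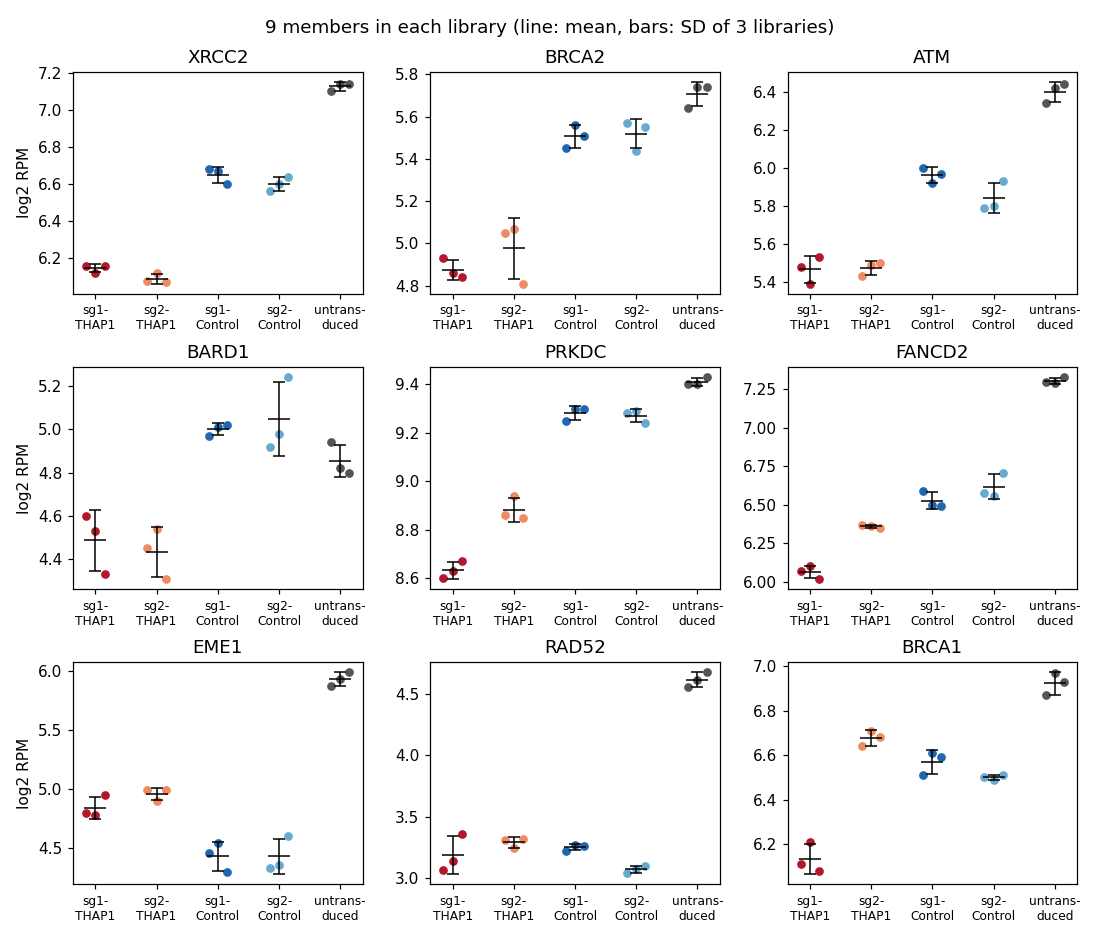
Points are single libraries in log2 RPM for 9 members, lines are the mean and bars the SD of the 3 libraries of a group; the vertical axes do not start at 0. In XRCC2, BRCA2, ATM, BARD1, PRKDC and FANCD2 all 6 sgTHAP1 libraries sit below the other 9, EME1 and RAD52 are lowest in cells with any guide, and BRCA1 differs between the THAP1 guides.

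Of the 10 genes of break sensing and resection, 8 were lower and 1 was higher. ATM, the kinase that signals double-strand breaks, measured 5.48, 5.39 and 5.53 log2 RPM with sg1-THAP1 and 5.43, 5.49 and 5.5 with sg2-THAP1, against 6.0, 5.92 and 5.97 with sg1-Control, 5.79, 5.80 and 5.93 with sg2-Control, and 6.34, 6.42 and 6.44 in untransduced cells. The conditions did not overlap, and the level was 74.1% of that in sgControl cells (log2 fold change -0.43, SE 0.04, adjusted p = 3.21e-08). The nuclease and helicase DNA2, which extends resection, had 5.16, 5.10 and 5.17 log2 RPM with sg1-THAP1 and 5.28, 5.32 and 5.15 with sg2-THAP1, against 5.49, 5.48 and 5.53 with sg1-Control, 5.48, 5.39 and 5.60 with sg2-Control, and 5.67, 5.70 and 5.76 in untransduced cells. EXO1, the nuclease of the other long-range resection route, had 6.76, 6.70 and 6.65 log2 RPM with sg1-THAP1 and 6.74, 6.82 and 6.83 with sg2-THAP1, against 6.86, 6.96 and 6.97 with sg1-Control, 6.95, 7.04 and 7.02 with sg2-Control, and 7.19, 7.18 and 7.19 in untransduced cells. In both, the 3 conditions did not overlap, and the log2 fold changes were -0.30 (adjusted p = 9.53e-06) for DNA2 and -0.22 (adjusted p = 2.94e-05) for EXO1. With median centring, sgControl against untransduced cells gave -0.06 for each (adjusted p = 0.319 for DNA2 and 0.207 for EXO1, limma), so that step depends on the scaling. Of the MRE11 complex, which starts resection, MRE11A fell by 0.22 on the log2 scale (adjusted p = 0.000108), its partner RAD50 rose by 0.18 (adjusted p = 0.00121) and NBN had a value of -0.06 (adjusted p = 0.206). The RAD50 call was lost in the sg1 pair (0.07, adjusted p = 0.155). The helicases BLM and WRN fell by 0.20 and 0.38, the kinase ATR by 0.19, and the resection factor RBBP8 by 0.11 on the log2 scale. With median centring BLM (-0.09, adjusted p = 0.153) and ATR (-0.08, adjusted p = 0.169) lost their calls, and ATR also with quantile normalization (-0.10, adjusted p = 0.073). RBBP8 (adjusted p = 0.0431) was at 0.01 with median centring, and its call was also lost without the filter, with quantile normalization, array weights or the sg2 pair alone, and on leaving out any 1 of 9 single libraries (untransduced replicate 1 or 3, sg1-Control replicate 1 or 3, sg2-Control replicate 2, any sg1-THAP1 replicate, or sg2-THAP1 replicate 1), which gave -0.07 to -0.11 and adjusted p of 0.0504 to 0.129.

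Both subunits of the joint molecule nuclease were higher, as were 20.2% of all genes. EME1 measured 4.80, 4.78 and 4.95 log2 RPM with sg1-THAP1 and 4.99, 4.90 and 4.99 with sg2-THAP1, against 4.46, 4.54 and 4.30 with sg1-Control and 4.33, 4.36 and 4.60 with sg2-Control. All sgTHAP1 libraries lay above all sgControl libraries, but well below the 5.87, 5.93 and 5.99 log2 RPM of untransduced cells. EME1 was the member with the largest rise past the test, to 139% of the sgControl level (log2 fold change 0.47, SE 0.06, adjusted p = 7.08e-07). MUS81, its catalytic partner, rose by 0.15 (adjusted p = 0.024), a call lost without sg2-THAP1 replicate 1 (0.12, adjusted p = 0.0599) or replicate 3 (0.11, adjusted p = 0.0678). The MUS81 call was also lost in the sg1 pair (0.04, adjusted p = 0.518).

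In the Fanconi pathway, the core complex had 2 of 8 members lower, and both of its substrates were lower. FANCD2 measured 6.07, 6.10 and 6.02 log2 RPM with sg1-THAP1 and 6.37, 6.36 and 6.35 with sg2-THAP1, against 6.59, 6.50 and 6.49 with sg1-Control, 6.58, 6.56 and 6.71 with sg2-Control, and 7.30, 7.29 and 7.33 in untransduced cells. The 3 conditions did not overlap, and the sg1-THAP1 libraries lay below the sg2-THAP1 libraries. FANCD2 was at 77.9% of the sgControl level (log2 fold change -0.36, SE 0.06, adjusted p = 2.43e-05) and FANCI fell by 0.21 (adjusted p = 9.98e-05). FANCA, a core subunit, had 6.26, 6.31 and 6.36 log2 RPM with sg1-THAP1 and 6.42, 6.35 and 6.37 with sg2-THAP1, against 6.61, 6.62 and 6.54 with sg1-Control, 6.59, 6.61 and 6.65 with sg2-Control, and 6.88, 6.85 and 6.86 in untransduced cells. FANCA fell by 0.26 (adjusted p = 7.12e-07) and FANCB by 0.29 (adjusted p = 0.00219) on the log2 scale. The FANCB call was lost in the sg2 pair (-0.15, adjusted p = 0.166). FANCC, FANCE, FANCG, FANCL and FANCM lay between -0.05 and 0.11 and did not pass the test. FANCC passed with quantile normalization (0.17, adjusted p = 0.0166), median centring (0.23, adjusted p = 0.00186), array weights, 1 coefficient per guide or the sg2 pair alone (0.22, adjusted p = 0.000306). FANCE passed with quantile normalization (0.12, adjusted p = 0.0409) or median centring (0.14, adjusted p = 0.0196), and FANCG with median centring (0.11, adjusted p = 0.0225). FANCF, with 1 to 18 reads in sgTHAP1 and 0 to 5 in sgControl libraries, had a value of 1.24 (SE 0.64, adjusted p = 0.11). It passed with voom on reads (1.81, adjusted p = 0.0251), quantile normalization, array weights and without sg1-THAP1 replicate 3 (1.71, adjusted p = 0.0175).

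In end joining, PRKDC carried the largest change. PRKDC measured 8.60, 8.63 and 8.67 log2 RPM with sg1-THAP1 and 8.86, 8.94 and 8.85 with sg2-THAP1, against 9.25, 9.30 and 9.30 with sg1-Control, 9.28, 9.29 and 9.24 with sg2-Control, and 9.40, 9.40 and 9.43 in untransduced cells. The 3 conditions did not overlap, and the level was 69.8% of that in sgControl cells (log2 fold change -0.52, SE 0.05, adjusted p = 1.03e-08). XRCC5 fell by 0.16 (adjusted p = 4.64e-05) and LIG4, the ligase of classical end joining, by 0.21 (adjusted p = 0.0205). The XRCC5 call was lost with median centring (-0.04, adjusted p = 0.353). The LIG4 call was lost without sg1-Control replicate 3 (-0.19, adjusted p = 0.0516) or sg1-THAP1 replicate 3 (-0.17, adjusted p = 0.055), with median centring or quantile normalization (-0.10 each) and in the sg2 pair (-0.01, adjusted p = 0.919). XRCC6, XRCC4, NHEJ1 and DCLRE1C (Artemis) had values of 0.03, 0.12, 0.02 and -0.09 that did not pass. XRCC6 passed with median centring (0.14, adjusted p = 0.000285) and in the sg2 pair (0.08, adjusted p = 0.00147). XRCC4 passed with quantile normalization (0.22, adjusted p = 0.00796) and median centring (0.23, adjusted p = 0.0048). Of the alternative pathway, the polymerase POLQ fell by 0.29 (adjusted p = 0.000174) and PARP1 stood at 0.04 (adjusted p = 0.426). PARP1 passed with median centring (0.15, adjusted p = 0.0011), array weights (0.09, adjusted p = 0.0488), 1 coefficient per guide (0.04, adjusted p = 0.0199) and in the sg1 pair (0.05, adjusted p = 0.0457).

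Fitted by guide, sg2-THAP1 cells had 17 members lower and 9 higher than sg2-Control cells, beside 27.8% and 23.4% of all genes, and sg1-THAP1 cells had 22 lower and 3 higher than sg1-Control cells, beside 36.8% and 18.8% of all genes. With median centring the sg1 pair had 14 lower and 15 higher, beside 22.3% and 33.4% of all genes, and with quantile normalization 20 lower and 8 higher, beside 25.7% and 27.8%. In both pairs 17 members (39.5%) were lower and 2 (4.65%), RAD51C and EME1, were higher, beside 21.3% and 12.4% of all genes. The pairs differed, at an adjusted p under 0.001, for 5 members, all higher in the sg2 pair, a difference that 9.08% of all genes showed in that direction and 3.06% in the other. That count was 3 without sg1-Control replicate 1 or 3, sg2-Control replicate 1 or 2, sg1-THAP1 replicate 3, or sg2-THAP1 replicate 1 or 3. BRCA1 (chr17:43044295-43125483, minus strand), the ligase that promotes resection, had the difference with the smallest adjusted p. BRCA1 measured 6.64, 6.71 and 6.68 log2 RPM with sg2-THAP1 against 6.50, 6.49 and 6.51 with sg2-Control, and 6.11, 6.21 and 6.08 with sg1-THAP1 against 6.51, 6.61 and 6.59 with sg1-Control. Untransduced cells had 6.87, 6.97 and 6.93. Thus BRCA1 was higher than its control with one guide and lower with the other, with no overlap in either pair, and the log2 fold changes were 0.18 (SE 0.04, adjusted p = 6.72e-05) in the sg2 pair and -0.44 (SE 0.04, adjusted p = 1.4e-13) in the sg1 pair. The difference of 0.62 had an SE of 0.05 (adjusted p = 3.03e-12). Pooled over guides, BRCA1 did not pass the test (-0.13, adjusted p = 0.255), though it did with 1 coefficient per guide (-0.13, adjusted p = 4.22e-05).

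RAD51D, a further strand invasion factor, measured 4.47, 4.5 and 4.45 log2 RPM with sg2-THAP1 against 3.99, 3.78 and 4.0 with sg2-Control, and 4.12, 3.79 and 3.88 with sg1-THAP1 against 4.04, 4.15 and 4.0 with sg1-Control, with 4.53, 4.59 and 4.69 in untransduced cells. RAD51D was higher in every sg2-THAP1 library than in its control, and the sg1 pair overlapped. The changes were 0.55 (adjusted p = 3.49e-08) and -0.13 (adjusted p = 0.123), and the difference was 0.68 (SE 0.10, adjusted p = 2.2e-06). Pooled over guides, RAD51D had a value of 0.21 that did not pass (adjusted p = 0.111). It passed with median centring (0.32, adjusted p = 0.00595), quantile normalization, voom, array weights, 1 coefficient per guide (0.21, adjusted p = 0.000705) or without sg1-THAP1 replicate 2 or 3. PRKDC fell in both pairs, by 0.39 in the sg2 pair and by 0.65 in the sg1 pair, and the difference of 0.27 had an adjusted p of 1.02e-07. WRN, a helicase, measured 4.73, 4.70 and 4.71 with sg2-THAP1 against 4.90, 4.81 and 5.03 with sg2-Control, and 4.33, 4.43 and 4.34 with sg1-THAP1 against 4.98, 4.88 and 4.93 with sg1-Control, with 4.65, 4.57 and 4.51 log2 RPM in untransduced cells. WRN was lower in both pairs without overlap, and the difference between them was 0.37 (adjusted p = 0.000564). POLQ fell in both pairs, by 0.14 in the sg2 pair and by 0.45 in the sg1 pair, with a difference of 0.31 (adjusted p = 0.000938). The median difference between pairs over all genes was 0.08. Genes that mark mitosis, given below, also differed between the pairs, and the part of cell cycle distribution in these differences was not tested. With median centring WRN (0.26, adjusted p = 0.0141) and POLQ (0.20, adjusted p = 0.0297) missed the threshold of 0.001, as they did with quantile normalization (0.27, adjusted p = 0.0136, and 0.22, adjusted p = 0.0248).

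**Figure D3:**
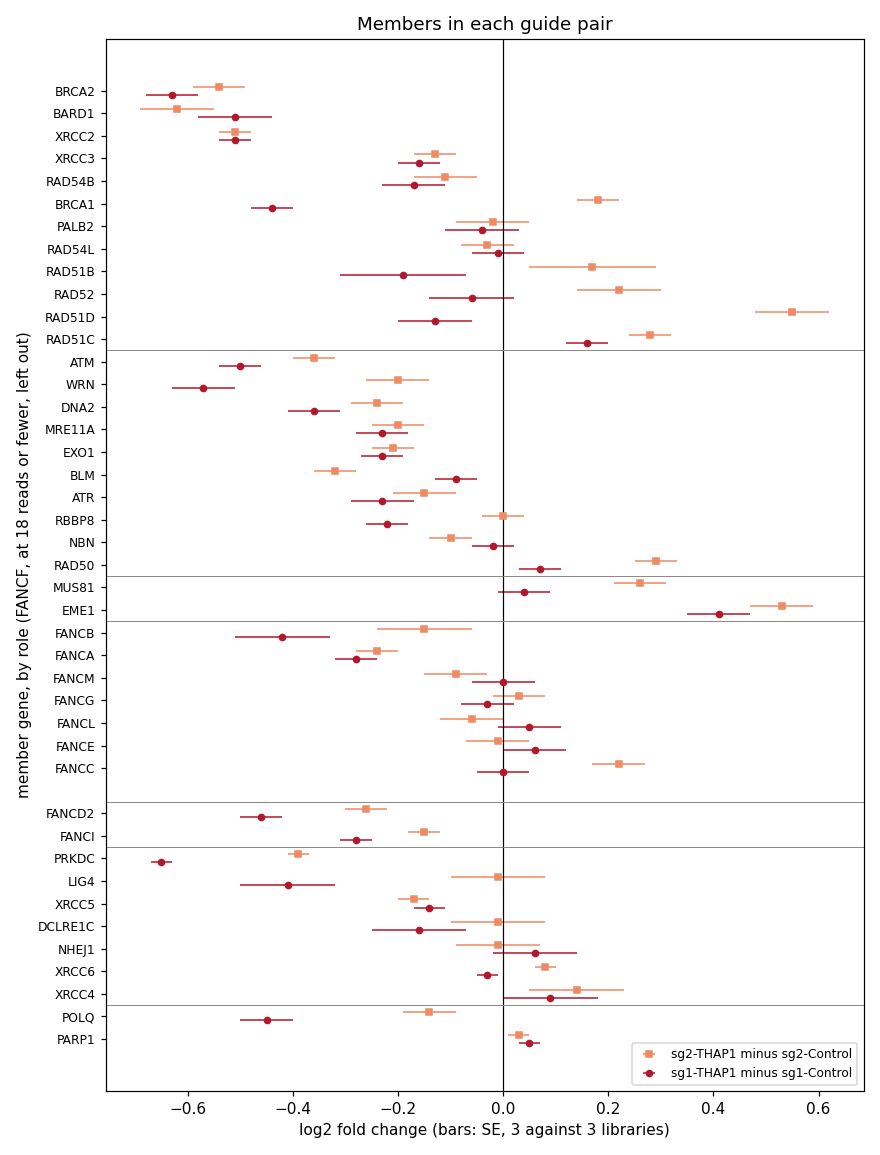
Points give the log2 fold change of 42 members in the sg2 pair (squares) and the sg1 pair (circles), each 3 against 3 libraries, with bars of 1 SE; FANCF is left out. BRCA2, BARD1 and XRCC2 fell alike in both pairs, EME1 rose in both, and BRCA1 at -0.44 and 0.18 lies on opposite sides of 0.

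WRN lies on the short arm of chromosome 8 beyond THAP1, the gene cut by both guides. Over the 197 tested genes in that stretch the median log2 fold change was -0.23 in sgTHAP1 against sgControl cells, beside -0.11 over the 382 genes of the rest of the chromosome, where RAD54B, NBN and PRKDC lie, and -0.06 over all genes. By guide the median of that stretch was -0.19 in the sg2 pair and -0.28 in the sg1 pair. The part of this regional shift in the value of WRN was not tested.

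Cells with control guides also differed from untransduced cells in these genes. Relative to untransduced cells, sgControl cells had 29 members lower and 6 higher, beside 40.5% and 28.1% of all genes, and the median log2 fold change was -0.26 over the members and -0.12 over all genes. In 28 members all 6 sgControl libraries lay below the 3 untransduced libraries, beside 39.8% of all genes, and in 5 they lay above, beside 27.3%. With median centring 19 members were lower and 10 higher, beside 30.2% and 37.8% of all genes, and with quantile normalization 27 were lower and 8 higher, beside 31.7% and 33.7%. Centring moved the median of all genes to 0.034 in this comparison, against -0.122 as deposited. Transduction, Cas9, cutting and time in culture cannot be told apart in this comparison. The same holds for any difference between these cells in the reporter or in PSMB5 overexpression.

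EME1 and RAD52 were the members that passed the study's thresholds downward, as did 8.76% of all genes. RAD52, which anneals single strands, measured 3.22, 3.27 and 3.26 log2 RPM with sg1-Control and 3.04, 3.07 and 3.10 with sg2-Control, against 4.56, 4.62 and 4.68 in untransduced cells, or 36.3% of the untransduced level (log2 fold change -1.46, SE 0.08, adjusted p = 2.77e-12). The sgTHAP1 libraries, at 3.06, 3.14 and 3.36 with sg1-THAP1 and 3.31, 3.24 and 3.32 with sg2-THAP1, overlapped those of sgControl cells. EME1, with the values given above, was at 35.4% of the untransduced level in sgControl cells (log2 fold change -1.5, SE 0.07, adjusted p = 2.22e-13). FANCE, a core subunit, measured 4.14, 4.15 and 4.17 log2 RPM with sg1-Control and 4.18, 4.11 and 4.23 with sg2-Control, against 5.02, 5.04 and 5.03 in untransduced cells, a change of -0.87 (SE 0.05, adjusted p = 1.32e-11), and 4.18, 4.28 and 4.17 with sg1-THAP1 and 4.20, 4.1 and 4.20 with sg2-THAP1. FANCE libraries of the 4 guides overlapped one another and all lay below untransduced libraries. FANCF had 3, 0 and 5 reads with sg1-Control and 4, 2 and 4 with sg2-Control, against 8, 9 and 9 in untransduced cells, and 3, 5 and 1 with sg1-THAP1 and 12, 10 and 18 with sg2-THAP1. Its fitted value of -1.96 (SE 0.78, adjusted p = 0.0318) rests on these few reads, and the call was lost without any 1 untransduced library (adjusted p = 0.0665 to 0.0853) and without sg1-Control replicate 2 (adjusted p = 0.0641).

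FANCD2, MRE11A, LIG4 and RAD51D had the next largest falls below untransduced cells, by 0.74, 0.71, 0.61 and 0.61 on the log2 scale (adjusted p = 1.17e-08, 1.01e-10, 5.16e-06 and 0.000335). The 6 members that were higher in sgControl cells include 3 of the 7 of the classical end joining pathway: XRCC5, XRCC6 and the ligase cofactor NHEJ1 rose by 0.37, 0.36 and 0.36. In that pathway 3 others, LIG4, PRKDC and DCLRE1C, were lower, and the median over the 7 was -0.10. Either count is 42.9% of the pathway, beside 28.1% of all genes higher and 40.5% lower. The DCLRE1C call was lost with quantile normalization (-0.10, adjusted p = 0.36) or median centring (-0.17, adjusted p = 0.0848). PARP1 rose by 0.39, WRN by 0.35, and BARD1 by 0.17 (adjusted p = 0.0452), the last a call lost without sg2-Control replicate 3 (0.13, adjusted p = 0.10), untransduced replicate 2 (0.15, adjusted p = 0.131) or 3 (0.14, adjusted p = 0.154), or sg1-Control replicate 2 or 3 (0.17 each, adjusted p = 0.0581 and 0.0614).

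Set against untransduced cells, sgTHAP1 cells had 31 members lower and 5 higher, beside 45.5% and 26.9% of all genes, with a median log2 fold change of -0.42 over the members and -0.20 over all genes. With median centring 22 members were lower and 10 higher, beside 31.3% and 41.5% of all genes, and with quantile normalization 26 were lower and 8 higher, beside 32.9% and 36.1%; centring moved the median of all genes to 0.075, against -0.196 as deposited. RAD52 (-1.38), FANCD2 (-1.10), EME1 (-1.03) and XRCC2 (-1.01) were lower past the study's thresholds, which 13.4% of genes passed, and with median centring 1 member passed. RAD51C, XRCC5, XRCC6, NHEJ1 and PARP1 were the 5 higher members, with log2 fold changes of 0.14, 0.21, 0.38, 0.38 and 0.43. The RAD51C call was lost without untransduced replicate 2 (0.11, adjusted p = 0.0855) and with sg1-THAP1 alone (0.07, adjusted p = 0.107), and the XRCC5 call with quantile normalization (0.06, adjusted p = 0.132).

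Among 52 further genes of recombination, crosslink repair and break signalling, 16 were lower and 17 higher in sgTHAP1 than in sgControl cells, with a median of 0.01. These are 30.8% and 32.7%, beside 32.6% and 20.2% of all genes. RIF1, which recruits shieldin to 53BP1, measured 6.14 to 6.43 log2 RPM in sgTHAP1, 6.92 to 7.05 in sgControl and 6.60 to 6.68 in untransduced libraries and fell by 0.69 (SE 0.05, adjusted p = 1.54e-10). Of 5 genes listed for shieldin and SLX4IP, 2 fell more than 2-fold, C20orf196 (SHLD1, a shieldin subunit) by 5.41 and SLX4IP, a partner of the SLX4 nuclease scaffold, by 3.99 on the log2 scale. Both changes are larger than that of any of the 43 members, and the value of C20orf196 depends on how a library without reads is listed, since reads were 0 in at least 1 sgTHAP1 library. Of the 20 S phase genes 18 fell and 0 rose, with a median of -0.26, with the smallest adjusted p for MCM2, a subunit of the replicative helicase (-0.48, adjusted p = 3.06e-11), and POLE, the leading-strand polymerase (-0.52, adjusted p = 4.82e-11). Of the 15 mitosis genes 0 fell and 10 rose (66.7%, beside 20.2% of all genes), with a median of 0.27. By guide, 1 fell and 8 rose in the sg1 pair (median 0.1), and 15 rose in the sg2 pair (median 0.35). The sg2 pair minus the sg1 pair was higher for 14 of them (93.3%, beside 20.6% of all genes) at an adjusted p under 0.05. In sgControl against untransduced cells 2 S phase genes fell and 14 rose, with a median of 0.23, beside the median of -0.26 over the members.

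Of the 43 members, 20 (46.5%) have a gene on the other strand that starts within 1000 bp, beside 28.5% of all genes tested. In 15 of these pairs both genes were tested. The counts below were not made for such pairs over all genes, so they do not show whether these members differ from other genes. In sgTHAP1 against sgControl cells 3 pairs were called in the same direction and 1 in opposite directions (RAD51C, with TEX14 at -0.34, adjusted p = 0.0246), while in 6 pairs the member alone was called, in 2 the neighbour alone and in 3 neither. In sgControl against untransduced cells 0 pairs were called in the same direction and 7 in opposite directions, among them PRKDC, whose value there was 0.02 with median centring. The PRKDC call there was also lost without any 1 untransduced library (adjusted p = 0.079 to 0.114). It was lost as well without sg1-Control replicate 1, without any 1 sg2-Control library and without the filter. PRKDC and MCM4, a subunit of the replicative helicase, start 2 bp apart and fell together in sgTHAP1 cells (MCM4 by 0.40, adjusted p = 3.38e-10). ATM and NPAT, an activator of histone genes, start 158 bp apart and also fell together (NPAT by 0.70, adjusted p = 3.53e-10). EME1 and MRPL27, a mitochondrial ribosomal protein gene, start 6 bp apart in the table, and both rose (MRPL27 by 0.44, adjusted p = 1.92e-09). In sgControl against untransduced cells, by contrast, MRPL27 rose by 0.65 (adjusted p = 3.19e-11) where EME1 fell by 1.5. RAD52 and ERC1, a scaffold of the presynaptic zone, showed opposite changes there as well (ERC1 rose by 0.66, adjusted p = 1.71e-07). In RefSeq (GRCh38.p14) 44 bases separate the starts of MRPL27 and EME1, at chr17:50373145-50373268 of the plus strand, where EME1 reads to the right and MRPL27 to the left, and the sequence is shown because the pair moved together in one comparison and apart in the other. Capitals mark the bases between the starts.
EME1 and MRPL27: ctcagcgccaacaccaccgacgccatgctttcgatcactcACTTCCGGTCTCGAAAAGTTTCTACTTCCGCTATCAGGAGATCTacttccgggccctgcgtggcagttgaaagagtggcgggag

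**Figure D4:**
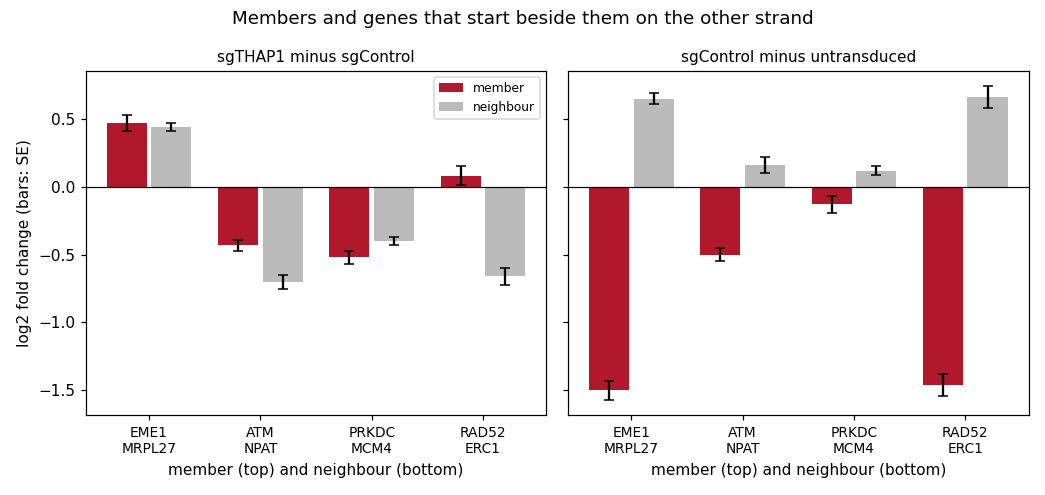
Bars give the log2 fold change of 4 members (red) and of the gene that starts beside each on the other strand (grey), with bars of 1 SE, for sgTHAP1 against sgControl cells on the left and sgControl against untransduced cells on the right. On the left the pairs of EME1, ATM and PRKDC share a sign; on the right each member is below 0 (PRKDC at 0.02 with median centring) and its neighbour above 0.

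RefSeq promoters, 250 bases before to 50 after the start, were matched for 36 of the 43 members. Those of RAD54B, NBN, DNA2, WRN, FANCI, XRCC5 and PRKDC are not shown. Each motif was searched on both strands. The THAP1 motif TNNNGGCA occurred in 14 of the 36 promoters (38.9%), beside 41.6% of all 27305 promoters, and the YY1 motif CCATNTT in 5 (13.9%), beside 15.9%. An E2F motif, TTTNGCGC, was found in 3 (EXO1, FANCC and XRCC6, 8.33%), beside 1.83%, and the NRF1 motif (GCGC, any base, then TGCGC) in 4 (PALB2, XRCC2, ATM and FANCA, 11.1%), beside 6.28%. In this window the THAP1 motif thus stood in these promoters about as often as in all promoters. In promoters of 100 bases before to 50 after the start it was less frequent in members (13.9%, beside 23.5%). The 27305 promoters were not limited to the genes tested here, so these shares are not matched for expression. Of the 10 members with the smallest adjusted p in sgTHAP1 against sgControl cells, ATM, FANCA, FANCD2 and EXO1 carry it, XRCC2, BRCA2, BARD1 and EME1 do not, and PRKDC and DNA2 had no promoter entry. These stretches are shown 5′ to 3′ on the strand of the gene, with the THAP1 motif in capitals for ATM (chr11:108222906-108222953, plus), FANCA (chr16:89816861-89816897, minus) and FANCD2 (chr3:10026319-10026366, plus, where it reads on the other strand), the E2F motif and then the THAP1 motif for EXO1 (chr1:241848188-241848247, plus), and the NRF1 motif, on the other strand, for XRCC2 (chr7:152676159-152676208, minus). A match is only a match of letters.
ATM: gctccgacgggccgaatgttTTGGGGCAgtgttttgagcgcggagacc
FANCA: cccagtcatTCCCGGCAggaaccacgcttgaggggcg
FANCD2: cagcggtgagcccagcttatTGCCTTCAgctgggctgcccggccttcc
EXO1: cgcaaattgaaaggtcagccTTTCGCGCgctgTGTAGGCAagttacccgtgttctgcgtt
XRCC2: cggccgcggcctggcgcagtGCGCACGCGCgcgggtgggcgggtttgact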

How the data were processed

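Strand-specific polyA+ libraries were trimmed with Cutadapt, aligned with HISAT2 to GRCh38 and counted per gene in SeqMonk by the authors. For the counting, the sources used here give neither annotation release nor strand setting, so reads of members that overlap a tested gene on the other strand (XRCC3, RAD54L, MRE11A, NBN, ATM, MUS81, EME1, FANCA, FANCL, FANCI, DCLRE1C and XRCC4) may include that gene. The deposited values are log2 RPM (reads scaled to a common library size), in which a gene with 0 reads is listed at 0.9 of a read. Whole reads were recovered by taking the lowest value of each library as 0.9 of a read. On that scale 100% of values lay within 0.1 of a whole read, with values listed for 0 reads counted as whole. The total reads of a library were inferred from the same scale. The authors' own means and log2 fold changes, also deposited, were not used.

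A gene was tested if its log2 value reached -2 in 3 or more of the 15 libraries (16787 of 35805). limma 3.58.1 in R 4.3.3, with a trend on the mean, was fitted to the log2 values over all libraries with 1 coefficient per condition, and again with 1 coefficient per guide for the guide pairs and their difference. p-values were adjusted by the Benjamini-Hochberg method over all genes tested. Calls used an adjusted p under 0.05. The study's thresholds (0.001 and 2-fold) and, for the guide difference, 0.001 are named where used. Fold changes of genes with few reads depend on the listed value of 0 reads. The fit was tested on simulated data with independent noise in each library and the same effect for both THAP1 guides. That setting holds no difference between guides, so it cannot show how the pooled fit handles such differences. Exon lengths came from GENCODE 44, promoters from RefSeq.

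The members and lists were chosen with earlier results of these data known. Values of every library are given for the 10 members with the smallest adjusted p in sgTHAP1 against sgControl, the 4 with the largest called change there and in sgControl against untransduced, and the 4 with the smallest adjusted p for the guide difference. Of the genes on the fixed lists outside the members, IRS4, MCM2 and POLE had the 3 smallest adjusted p, while NEFM, RIF1, C20orf196, SLX4IP and the neighbours were named after their values were seen. Alternatives were another filter or none, a pseudocount of 0.5 RPM, median centring, quantile normalization, array weights, voom on the recovered reads, 1 coefficient per guide, a replicate block, single guides, and each library left out.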

Additional observations from a re-analysis of the deposited data

Results flagged for a closer look

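Of the 86 groups of 6 libraries examined, 2 had 1 library far from the others, and chance flags about 1 group in 20. BARD1 measured 5.24 log2 RPM in sg2-Control replicate 3, where the nearest of the other 5 sgControl libraries had 5.02. MRE11A measured 5.80 in the same library, where the nearest had 5.68.

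The change differed between the sg2 pair and the sg1 pair for 5 members, all higher in the sg2 pair, or 11.6%, beside 9.08% of all genes in that direction, so the share is near that of all genes. The difference, sg2 pair minus sg1 pair, was 0.62 on the log2 scale for BRCA1 (adjusted p = 3.03e-12, limma), 0.68 for RAD51D (adjusted p = 2.2e-06), 0.27 for PRKDC (adjusted p = 1.02e-07), 0.37 for WRN (adjusted p = 0.000564) and 0.31 for POLQ (adjusted p = 0.000938). BRCA1, RAD51D and PRKDC stayed under an adjusted p of 0.001 in every alternative run, and WRN and POLQ did not.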

How the results depend on the processing

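The 10 members with the smallest adjusted p in sgTHAP1 against sgControl cells kept their direction and their call there in every alternative run. Median centring changed the most. With it, 12 members were higher in sgTHAP1 than in sgControl cells and the median log2 fold change over all members was 0.01, sgControl against untransduced cells gave 19 lower and 10 higher members (median -0.10), 10 were higher and 1 lower past 2-fold in sgTHAP1 than in untransduced cells (median -0.15), the sg1 pair had 14 lower and 15 higher, and the guide difference had 3 higher and 1 lower. Quantile normalization gave 10 higher (median -0.06) in sgTHAP1 against sgControl cells, a median of -0.32 in sgControl against untransduced cells, 8 higher (median -0.27) in sgTHAP1 against untransduced cells, 8 higher in the sg1 pair and 1 lower for the guide difference. In sgTHAP1 against sgControl cells, array weights gave 8 higher, 1 coefficient per guide 7, the sg2 pair alone 9 (median -0.06) and the sg1 pair alone a median of -0.16. sg2-THAP1 alone against untransduced cells had 2 members lower past 2-fold, and without the filter the guide difference had 3 higher.

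Directions turned for BRCA1 (0.18, sg2 pair alone), RBBP8 (0.01 with centring, 0.00 in the sg2 pair) and FANCG (0.11, centring) in sgTHAP1 against sgControl cells. In sgControl against untransduced cells they turned for RAD51B (0.17) and XRCC4 (0.25) with quantile normalization and PRKDC (0.02) with centring. In sgTHAP1 against untransduced cells they turned with centring for PALB2 (0.11), RAD50 (0.07), WRN (0.23), MUS81 (0.04) and FANCM (0.11), with quantile normalization for RAD51B (0.31) and FANCB (0.35), and with sg2-THAP1 alone for WRN (0.14). The cause was not tested.

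Leaving out 1 library at a time gave 19 to 21 lower and 3 to 6 higher in sgTHAP1 against sgControl cells (median -0.13 to -0.06, the last without sg1-THAP1 replicate 3) and 3 to 6 higher and 0 to 1 lower for the guide difference (the 1 came from leaving out replicate 1 of sg1-THAP1, and again from leaving out replicate 2 of sg2-THAP1). Replicate numbers did not pair the libraries (median correlation 0.00232 over 30 same-numbered pairs). With the replicate block 20 members were lower and 4 higher in sgTHAP1 against sgControl cells, where RBBP8 lost its call (adjusted p = 0.0552), and BARD1 (adjusted p = 0.0614) and PRKDC (adjusted p = 0.0574) lost their calls in sgControl against untransduced cells. In promoters of 100 bases before to 50 after the start, 13.9% of members held the THAP1 motif and 2.78% the YY1 motif, beside 23.5% and 8.56% of all promoters. The NRF1 motif was there in 2 members (5.56%), near the 4.57% of all promoters, and the E2F motif in 2 (5.56%), beside 0.956%. FANCF, at 18 reads or fewer, is limited by depth.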
